A study of Mus musculus with 31 samples.

Results

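Neurotrophins and activity-regulated secreted proteins are described here through 10 genes, followed in the basolateral amygdala (BLA) of 31 mice by QuantSeq, a 3′ RNA sequencing method that gives about 1 read per transcript near its 3′ end. The genes were taken by name from the 48709 genes of the deposited counts: Bdnf, Ntf3, Ntrk2, Ntrk3, Vgf, Scg2, Nptx1, Nptx2, Nptxr and Inhba. Of these, 9 were among the 17428 genes that passed the filter on low counts, and Ntf3 did not pass it. The mice were 16 WT animals (labelled Control) and 15 CYFIP1 OE animals, which carry human CYFIP1 on a bacterial artificial chromosome brought into C57BL/6N mice by pronuclear injection. They belonged to the transgenic lines labelled 1 and 3, bred from different founders, with 8 WT and 7 CYFIP1 OE mice in line 1 and 8 of each genotype in line 3. WT mice were 8 males and 8 females aged 59 to 61 days in line 1 and 58 to 60 days in line 3. CYFIP1 OE mice were 7 males and 8 females aged 59 to 77 days in line 1 and 58 to 64 days in line 3, and the 4 mice aged 77 days were all CYFIP1 OE mice of line 1. In the labels, 7 of the 8 WT mice of line 1 shared 1 name prefix, called a name group here, so that genotype and name group cannot be told apart in most of line 1. Each mouse was 1 replicate, with its left and right BLA pooled.

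Neurotrophins are secreted growth factors that signal through Trk receptor tyrosine kinases and the receptor p75. BDNF acts on TrkB, the product of Ntrk2, and this pathway is known in the amygdala for its part in fear learning. Granins such as VGF and secretogranin II are packed into dense-core vesicles and yield peptides, neuronal pentraxins gather AMPA receptors at synapses, and activin A, a dimer of the chain encoded by Inhba, is a ligand of the TGF-beta family. Several of these genes are known to be switched on by neuronal activity, in part through the cAMP response element (CRE), a short motif bound by the transcription factor CREB.

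Promoter windows, from 250 bases before to 50 bases after an annotated start, were found for 5 of the 10 genes in the RefSeq sequences of GRCm38.p6. They were 12 windows, 7 of Bdnf, which has several alternative first exons, 2 of Ntf3 and 1 each of Ntrk2, Scg2 and Inhba. No window was matched for Ntrk3, Vgf, Nptx1, Nptx2 and Nptxr. Both strands were searched for the CRE (TGACGTCA), for its core TGACG, which each CRE also holds, and for the AP-1 motif (TGAGTCA). The windows below are the ones that held a CRE or its core, shown in capitals. The first lies on the minus strand at chr1:79439977-79440276 and holds a CRE at position -68 from the Scg2 start. The second lies on the plus strand at chr2:109692186-109692485 and holds the core in reverse orientation at position -35 from a Bdnf start.
Scg2 promoter: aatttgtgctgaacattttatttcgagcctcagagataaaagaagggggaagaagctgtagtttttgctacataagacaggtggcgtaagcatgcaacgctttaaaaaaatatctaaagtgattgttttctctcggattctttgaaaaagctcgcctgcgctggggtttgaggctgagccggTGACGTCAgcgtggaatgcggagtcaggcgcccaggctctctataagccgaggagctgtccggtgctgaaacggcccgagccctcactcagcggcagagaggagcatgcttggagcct
Bdnf promoter: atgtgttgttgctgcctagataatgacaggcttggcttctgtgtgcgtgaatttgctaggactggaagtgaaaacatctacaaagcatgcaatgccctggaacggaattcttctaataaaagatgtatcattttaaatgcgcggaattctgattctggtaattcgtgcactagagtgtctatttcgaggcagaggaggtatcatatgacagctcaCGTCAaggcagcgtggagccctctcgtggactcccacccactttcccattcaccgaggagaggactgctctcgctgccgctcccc
Among 32851 promoter windows of the same length, 1.79% held a CRE, 20.8% held the core and 5.2% held the AP-1 motif, which was in none of the 12 windows. These matches are letters in a window and were not tested as binding sites.

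Total counts ranged from 5286708 to 8685308 per mouse, with a median of 7387585. The genotype labels could not be checked on the targeted gene, since the transgene is human and the table counts mouse genes. In CPM, counts scaled to the size of each library by TMM normalization, mouse Cyfip1 had 33.5 ± 4.48 CPM (SD, n = 16) in WT and 33.0 ± 3.66 CPM (SD, n = 15) in CYFIP1 OE mice. One library, from a male CYFIP1 OE mouse of line 3, stood apart, with a connectivity Z-score (its standardized correlation with all other profiles) of -4.59, against -1.45 for the next lowest. The study's rule leaves out libraries under -2, and this one was kept here, and values without it stand beside many of the results it touches. Markers of BLA projection neurons were present in most mice at very different levels: Slc17a7, a vesicular glutamate transporter, ran from 3.01 to 1109 CPM with a median of 196 CPM, and Rspo2 from 0 to 16.1 CPM. The summed level of 8 striatal neuron markers ran from 189 to 4259 CPM, with Drd2 at a median of 0, and that of 8 oligodendrocyte markers from 1160 to 9085 CPM. In such bulk tissue, fewer cells of a type and less RNA per cell cannot be told apart. The study punched the BLA out of a slice inspected by eye, and the share of neighbouring tissue in each punch was not tested.

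Levels were not divided by transcript length, because a 3′ method does not count along the transcript. Ntrk2 had the highest mean of the 10 genes, 268 ± 28.1 CPM (SD, n = 31). Nptxr followed with 191 ± 127 CPM and Scg2 with 159.6 ± 55.6 CPM, but Nptxr was above Scg2 in 14 of 31 mice, so these neighbours did not differ beyond their spread. Ntrk3 had 104 ± 17.0 CPM, Vgf 85.7 ± 18.8 CPM and Nptx1 30.5 ± 20.9 CPM. Bdnf at 13.4 ± 9.83 CPM and Nptx2 at 11.3 ± 5.54 CPM overlapped as well, with Bdnf the higher in 17 of 31 mice. Inhba had 3.06 ± 1.57 CPM and Ntf3 0.374 ± 0.591 CPM.

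Bdnf, Nptx1 and Nptxr were among the most variable genes of their level, and Ntrk2 was among the steadiest. The coefficient of variation (CV) of Bdnf was 73.4%, where counting error alone would give 10.1%, and it was above the CV of 98.3% of the 3149 tested genes within a factor of 1.5 of its level. Nptx1 had a CV of 68.4%, above 98.8% of genes of like level, and Nptxr one of 66.5%, above 99.4%. Nptx2 at 49.1% and Scg2 at 34.8% were above 92.0% and 89.9% of such genes. Ntrk2 stood at the other end, with a CV of 10.5%, above only 5.4% of genes of like level. Ntrk3 (16.3%), Vgf (21.98%) and Inhba (51.3%) were above 36.9%, 69.2% and 48.5%, and for Inhba counting error alone would give 21.2%.

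**Figure D1:**
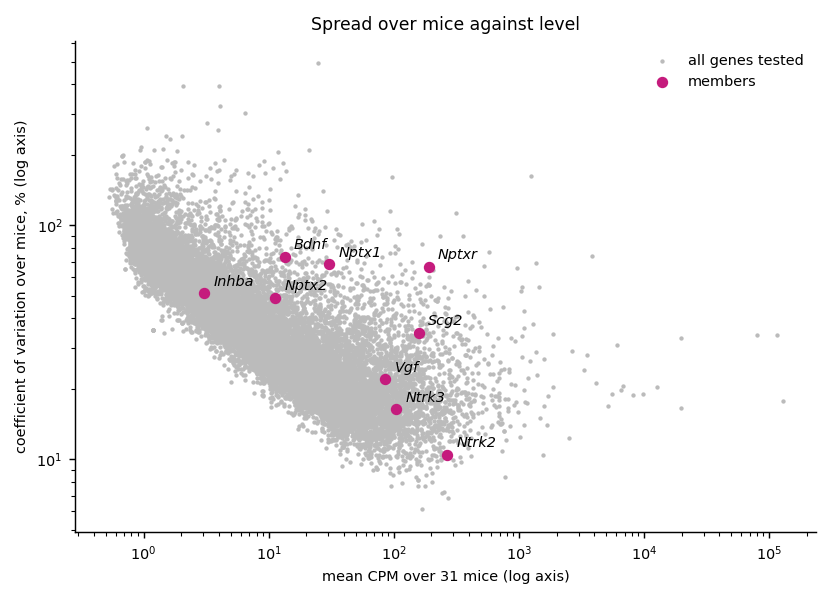
Coefficient of variation over 31 mice, in percent, against mean CPM, both on log axes, with a grey point for each tested gene and the 9 tested members marked by name. Bdnf, Nptx1 and Nptxr lie near the upper edge of genes of their level, at 73.4%, 68.4% and 66.5%, while Ntrk2 lies near the lower edge at 10.5%.

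Bdnf encodes the main ligand of TrkB (ENSMUSG00000048482, chr2:109674700-109727007, plus strand, in GRCm38 and GENCODE M21, as for all genes below). It ranged from 1.04 to 38.8 CPM, or 9 to 295 reads per mouse. The lowest, median and highest levels were 1.04, 7.59 and 20.7 CPM in WT and 1.72, 15.2 and 38.8 CPM in CYFIP1 OE mice of line 1. In line 3 they were 11.8, 15.8 and 29.8 CPM in WT and 2.51, 9.01 and 28.3 CPM in CYFIP1 OE mice. The groups overlapped, and the 9 mice under 5 CPM were 3 WT and 2 CYFIP1 OE mice of line 1 and 4 CYFIP1 OE mice of line 3, while no WT mouse of line 3 was that low. Over all mice, Bdnf averaged 12.8 ± 7.98 CPM (SD, n = 16) in WT and 13.99 ± 11.8 CPM (SD, n = 15) in CYFIP1 OE mice, and 8 of 15 transgenic mice exceeded the WT average. CYFIP1 OE over WT gave a log2 fold change of 0.20 ± 0.43 (SE, p = 0.645, adjusted p = 0.999) by edgeR with sex and line in the model, with an approximate 95% interval of 0.638- to 2.08-fold. It was 1.03 ± 0.59 (SE, p = 0.0889) in line 1 and -0.57 ± 0.56 (SE, p = 0.323) in line 3, where it was -0.92 ± 0.57 (SE, p = 0.118) without the library that stood apart. The difference of these, line 3 minus line 1, was -1.60 ± 0.82 (SE, p = 0.0579, adjusted p = 0.63), so that the opposite signs did not pass the test. The antisense gene Gm45346, which overlaps Bdnf, had 0 reads.

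Ntf3 encodes neurotrophin-3, the preferred ligand of TrkC (ENSMUSG00000049107, chr6:126101412-126166910, minus strand), and was close to the limit of detection. It had 91 reads over all mice and none in 13 of them, 6 WT and 7 CYFIP1 OE. The median mouse had 1 read and the highest, a WT mouse of line 3, 25 reads. In a fit without the filter the log2 fold change was -0.69 ± 0.83 (SE, p = 0.415), with 64 reads in WT and 27 in CYFIP1 OE mice. In line 3 it was -2.12 ± 1.15 (SE, p = 0.0701), on 49 and 8 reads. A difference was not detectable at this depth.

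Ntrk2 encodes TrkB (ENSMUSG00000055254, chr13:58806569-59133970, plus strand). Its lowest, median and highest levels were 201, 252 and 287 CPM in WT and 226, 269 and 322 CPM in CYFIP1 OE mice of line 1, and 260.3, 277 and 301 CPM in WT and 250.3, 271 and 302 CPM in CYFIP1 OE mice of line 3. All 4 groups overlapped, with the lowest mean, 245 CPM, in WT mice of line 1. Over all mice the log2 fold change was 0.08 ± 0.07 (SE, p = 0.251), and its interval of 0.964- to 1.16-fold was the narrowest of the 9 tested members. It was 0.20 ± 0.09 (SE, p = 0.0426, adjusted p = 1.0) in line 1, where 6 of 7 transgenic mice exceeded the WT average, and -0.03 ± 0.09 (SE, p = 0.718) in line 3. The difference between lines was -0.23 ± 0.13 (SE, p = 0.0861). With line 1 fitted alone its value was 0.19 ± 0.11 (SE, p = 0.101). WT mice of line 3 against WT mice of line 1 gave a value of like size, 0.18 ± 0.09 (SE, p = 0.0523).

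Ntrk3 encodes TrkC (ENSMUSG00000059146, chr7:78175959-78738012, minus strand) and lay between 66.2 and 130.3 CPM. Its means were 99.3 ± 17.0 CPM (SD, n = 8) in WT and 98.6 ± 9.27 CPM (SD, n = 7) in CYFIP1 OE mice of line 1, and 107 ± 22.6 CPM (SD, n = 8) and 112 ± 15.4 CPM (SD, n = 8) in those of line 3. The log2 fold change over all mice was 0.03 ± 0.09 (SE, p = 0.734), with an interval of 0.904- to 1.15-fold. Within the gene, Gm44607 on the same strand and the antisense gene Gm9885 had 340 and 506 reads in all, against 23843 of Ntrk3.

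Vgf encodes a granin that is the precursor of several peptides (ENSMUSG00000037428, chr5:137026392-137033351, plus strand). Its lowest, median and highest levels were 68.8, 83.1 and 106 CPM in WT and 29.4, 90.9 and 121 CPM in CYFIP1 OE mice. The means, 86.0 ± 12.2 CPM (SD, n = 16) and 85.3 ± 24.5 CPM (SD, n = 15), lay close together, and the lowest CYFIP1 OE mouse was the library that stood apart. The log2 fold change was -0.03 ± 0.13 (SE, p = 0.838), and 0.05 ± 0.10 (SE, p = 0.658) without that library.

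Scg2, the precursor of secretoneurin (ENSMUSG00000050711, chr1:79434669-79440120, minus strand) and the gene with the CRE shown above, ran from 46.8 to 292 CPM. In line 1 the lowest, median and highest levels were 110.4, 162 and 198 CPM in WT and 109.7, 189 and 292 CPM in CYFIP1 OE mice. In line 3 they were 87.4, 138 and 229 CPM in WT and 46.8, 142 and 187 CPM in CYFIP1 OE mice. The groups overlapped, and the lowest value was again that of the library that stood apart. Its log2 fold change was 0.11 ± 0.16 (SE, p = 0.49) over all mice, 0.36 ± 0.23 (SE, p = 0.122) in line 1 and -0.12 ± 0.22 (SE, p = 0.582) in line 3, where it was 0.03 ± 0.19 (SE, p = 0.875) without that library.

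Nptx1 encodes neuronal pentraxin 1 (ENSMUSG00000025582, chr11:119538719-119547753, minus strand). Its lowest, median and highest levels were 4.98, 19.7 and 41.6 CPM in WT and 5.56, 22.5 and 66.1 CPM in CYFIP1 OE mice of line 1. In line 3 they were 17.8, 40.1 and 87.6 CPM in WT and 8.77, 21.4 and 64.5 CPM in CYFIP1 OE mice. Its low mice were those of Bdnf: all 7 mice under 10 CPM were among the 9 with Bdnf under 5 CPM. CYFIP1 OE over WT gave -0.08 ± 0.35 (SE, p = 0.827) over all mice, 0.48 ± 0.49 (SE, p = 0.338) in line 1 and -0.59 ± 0.47 (SE, p = 0.222) in line 3, or -0.91 ± 0.47 (SE, p = 0.0626) there without the library that stood apart.

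Nptx2 encodes the activity-regulated pentraxin Narp (ENSMUSG00000059991, chr5:144545902-144557478, plus strand). WT mice averaged 10.3 ± 4.98 CPM (SD, n = 16) and CYFIP1 OE mice 12.4 ± 6.06 CPM (SD, n = 15). In line 1 the lowest, median and highest levels were 4.52, 7.63 and 13.2 CPM in WT and 3.41, 11.1 and 26.0 CPM in CYFIP1 OE mice, whose range covered that of the WT mice. The log2 fold change over all mice, 0.29 ± 0.24 (SE, p = 0.231) with an interval of 0.885- to 1.69-fold, was the largest of the 9 tested members and did not exceed the spread. It was 0.62 ± 0.34 (SE, p = 0.0765) in line 1 and -0.01 ± 0.32 (SE, p = 0.967) in line 3.

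Nptxr encodes the membrane-anchored neuronal pentraxin receptor (ENSMUSG00000022421, chr15:79786351-79804766, minus strand). In line 1 its lowest, median and highest levels were 41.9, 106 and 282 CPM in WT and 45.3, 229 and 509 CPM in CYFIP1 OE mice. In line 3 they were 81.0, 206 and 456 CPM in WT and 62.0, 143 and 523 CPM in CYFIP1 OE mice. Each genotype held mice near both ends of the range. On the log2 scale CYFIP1 OE over WT was 0.21 ± 0.32 (SE, p = 0.523) over all mice, 0.69 ± 0.45 (SE, p = 0.132) in line 1 and -0.25 ± 0.44 (SE, p = 0.564) in line 3. The highest mouse was the library that stood apart, and without it the value in line 3 was -0.64 ± 0.41 (SE, p = 0.132). Npcd, which overlaps Nptxr on the same strand, had 0 reads.

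Inhba encodes the beta A chain of activin A (ENSMUSG00000041324, chr13:16011851-16031621, plus strand) and had 1 to 45 reads per mouse. Its lowest, median and highest levels were 1.73, 3.45 and 5.86 CPM in WT and 0.127, 1.99 and 5.59 CPM in CYFIP1 OE mice of line 1. In line 3 they were 0.906, 2.22 and 4.44 CPM in WT and 1.87, 3.98 and 6.06 CPM in CYFIP1 OE mice. The groups overlapped, yet 1 of 7 transgenic mice exceeded the WT average in line 1 and 7 of 8 in line 3. As log2 fold changes these were -0.63 ± 0.43 (SE, p = 0.149) in line 1 and 0.76 ± 0.41 (SE, p = 0.0732) in line 3. Their difference, line 3 minus line 1, was 1.39 ± 0.59 (SE, p = 0.025, adjusted p = 0.57) by edgeR, which failed the correction over all 17428 genes. Without the 4 mice aged 77 days the difference was 0.84 ± 0.61 (SE, p = 0.179) and the value in line 1 was -0.08 ± 0.49 (SE, p = 0.871).

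**Figure D2:**
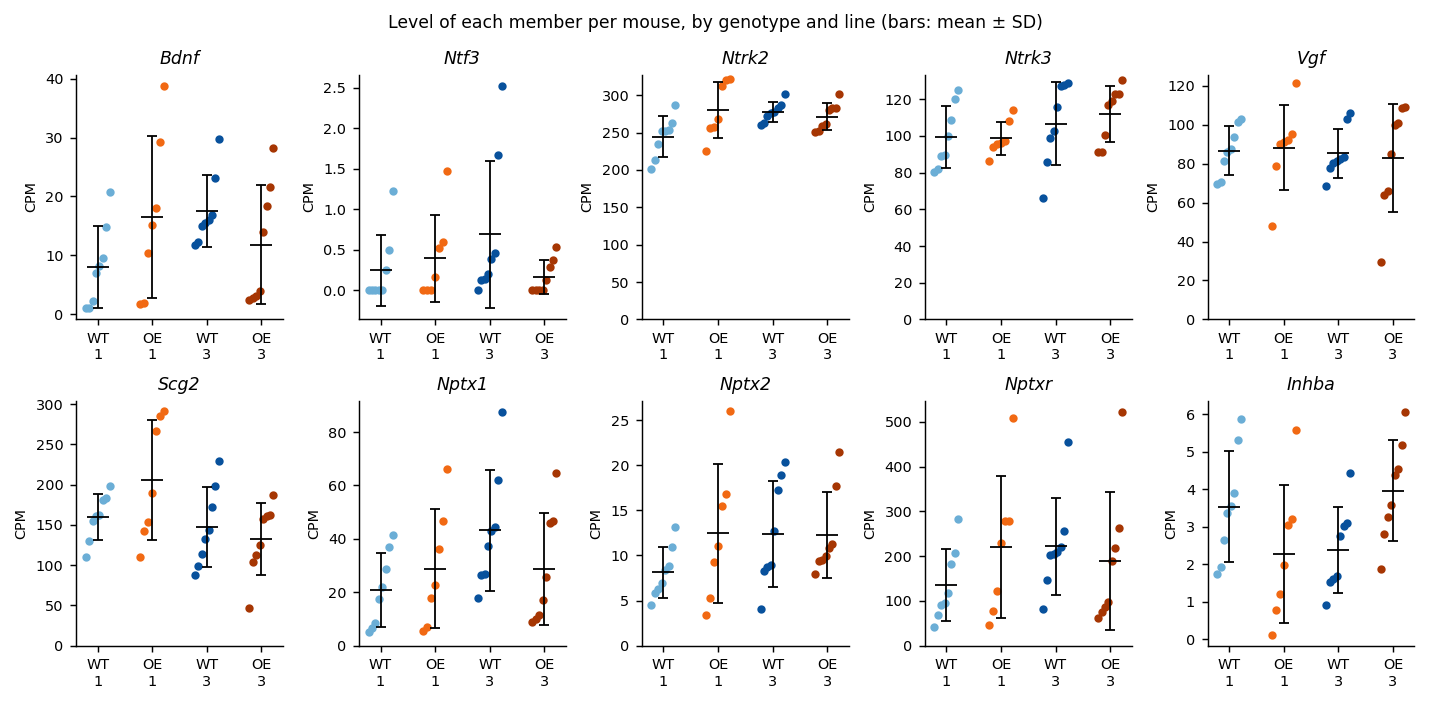
CPM of each of the 10 members in each mouse, by genotype and line, with a point for each mouse and the mean ± SD of the 7 or 8 mice of a group. Bdnf and Nptx1 go down to 1.04 and 4.98 CPM in WT mice of line 1 but not below 11.8 and 17.8 CPM in WT mice of line 3, and the groups overlap for every gene.

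No tested member had an adjusted p under 0.05 in any of the 6 comparisons by edgeR. For genotype over all mice, 0 of 9 members had an unadjusted p under 0.05, against 4.3% of all tested genes (750 genes). At an adjusted p under 0.05 it was 0% of all genes, with 0 genes by DESeq2. The median log2 fold change was 0.10 over the 9 members and -0.005 over all tested genes. With 5 surrogate variables in the model, 3 members had an unadjusted p under 0.05, against 5.54% of all genes. They were Scg2 at 0.21 ± 0.08 (SE, p = 0.0126), Ntrk2 at 0.13 ± 0.05 (SE, p = 0.0234) and Nptx1 at -0.44 ± 0.20 (SE, p = 0.0302), with adjusted p from 0.834 to 0.875.

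In line 1 only Ntrk2 had an unadjusted p under 0.05, against 3.96% of all genes, and in line 3 no member did, against 7.93%. By edgeR 0 genes passed an adjusted p under 0.05 in either line, with 691 and 1382 genes at an unadjusted p under 0.05, and 1 and 4 genes passed by DESeq2. The median over the members was 0.36 in line 1 and -0.07 in line 3, against 0.002 and -0.019 over all genes. For the difference between lines only Inhba had an unadjusted p under 0.05, against 8.1% of all genes (1412 genes), with 0 genes past the adjusted threshold by edgeR and 2 by DESeq2. Without the library that stood apart, 4 of 9 members had an unadjusted p under 0.05, against 10.4% of all genes. Bdnf was then at -1.98 ± 0.81 (SE, p = 0.0198), Nptx1 at -1.42 ± 0.67 (SE, p = 0.0418), Nptxr at -1.34 ± 0.58 (SE, p = 0.0288) and Inhba at 1.40 ± 0.61 (SE, p = 0.0276), and the smallest adjusted p of the 4 was 0.354. Bdnf, Nptx1 and Nptxr varied together across mice, as given below, so their calls are not independent of each other.

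WT mice of line 3 were also compared with WT mice of line 1. Since 7 of the 8 WT mice of line 1 shared 1 name group, line and name group cannot be told apart here. Nptx1 differed by 1.05 ± 0.48 (SE, p = 0.0342) on the log2 scale and Bdnf by 1.12 ± 0.57 (SE, p = 0.0575), and all 8 WT mice of line 3 lay above the line 1 mean of Bdnf. Nptx1 was the only member with an unadjusted p under 0.05, against 4.41% of all genes (768 genes), and 0 genes passed the adjusted threshold by edgeR and 0 by DESeq2. Fitted in WT mice alone, 4 members had an unadjusted p under 0.05, against 6.07% of all genes. They were Nptx1 at 1.04 ± 0.38 (SE, p = 0.0122), Bdnf at 1.14 ± 0.43 (SE, p = 0.016), Nptx2 at 0.60 ± 0.29 (SE, p = 0.049) and Nptxr at 0.69 ± 0.33 (SE, p = 0.0496). These 4 genes varied together across mice, as given below, so the 4 calls are not independent of each other. WT mice of both lines also enter the comparisons by genotype above. Between females and males 0 of 9 members had an unadjusted p under 0.05, against 4.62% of all genes, and 0.0631% of all genes passed the adjusted threshold. The largest sex difference among the members, female minus male, was 0.30 ± 0.31 (SE, p = 0.347) for Inhba.

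Across mice, Bdnf, Nptx1, Nptx2 and Nptxr varied together. Of the 45 pairs of members, 8 had an adjusted p under 0.05 for Pearson's r of log2 CPM over the 31 mice (two-sided permutation test, Benjamini-Hochberg over 45 pairs), and 6 of the 8 were the pairs among these 4 genes. Bdnf and Nptx1 had r = 0.914 (permutation p = 1e-05, 0.00015 adjusted) and rho = 0.874 (permutation p = 1e-05), where 1e-05 is the smallest p the permutations can give. Their r was 0.890 without the 2 mice farthest from the median of Bdnf, 0.908 within WT, 0.923 within CYFIP1 OE, 0.966 within line 1 and 0.825 within line 3. Bdnf and Nptxr had r = 0.846 (permutation p = 1e-05) and rho = 0.798 (permutation p = 1e-05), with 0.835 without the 2 farthest mice. Nptx1 and Nptxr had r = 0.831 (permutation p = 1e-05) and rho = 0.784 (permutation p = 1e-05), with 0.776 without the 2 farthest mice. Within each genotype and each line, r of these 2 pairs lay between 0.787 and 0.896.

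Nptx2 followed the others less evenly. With Bdnf it had r = 0.703 (permutation p = 4e-05, 0.00045 adjusted) and rho = 0.726 (permutation p = 5e-05), 0.658 without the 2 farthest mice, and 0.891 in line 1 but 0.354 in line 3. With Nptx1 it had r = 0.596 (permutation p = 0.00038, 0.00285 adjusted) and rho = 0.553 (permutation p = 0.00146), 0.468 without the 2 farthest mice, and 0.861 and 0.151 in lines 1 and 3. With Nptxr it had r = 0.589 (permutation p = 0.00046, 0.00296 adjusted) and rho = 0.581 (permutation p = 0.00069), 0.511 without the 2 farthest mice, and 0.741 and 0.349 in lines 1 and 3. Within line 3 these relations did not hold at the size seen in line 1, and the difference between lines was not tested.

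The granins Vgf and Scg2 had r = 0.653 (permutation p = 0.00034, 0.00285 adjusted) and rho = 0.481 (permutation p = 0.00664), with 0.469 in WT, 0.718 in CYFIP1 OE mice, and 0.503 and 0.750 in lines 1 and 3. Their r was 0.368 without the 2 mice farthest from the median of Vgf. Without the library that stood apart, which was the lowest of all mice in both genes, it was 0.419 (permutation p = 0.0216, adjusted p = 0.0886), so that the call rests on that mouse. Vgf with Nptx2 had r = 0.226 (permutation p = 0.225) over all mice but rho = 0.528 (permutation p = 0.00291, 0.0187 adjusted). Without that library the r of this pair was 0.547 (permutation p = 0.00164, adjusted p = 0.00922). Scg2 and Inhba ran in opposite directions, with r = -0.519 (permutation p = 0.00401, 0.0226 adjusted) and rho = -0.471 (permutation p = 0.00798). Their r was -0.467 without the 2 farthest mice, -0.640 and -0.421 in lines 1 and 3, -0.198 in WT and -0.642 in CYFIP1 OE mice. Bdnf and its receptor gene Ntrk2 had r = 0.313 (permutation p = 0.0869, 0.233 adjusted) and rho = 0.446 (permutation p = 0.0126), 0.418 without the farthest 2, and -0.010 among WT against 0.682 among transgenic mice, a difference that was not tested. Their r was 0.109 in residuals after a mean score of 8 excitatory neuron markers and -0.035 in residuals after name group, where its sign turned.

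**Figure D3:**
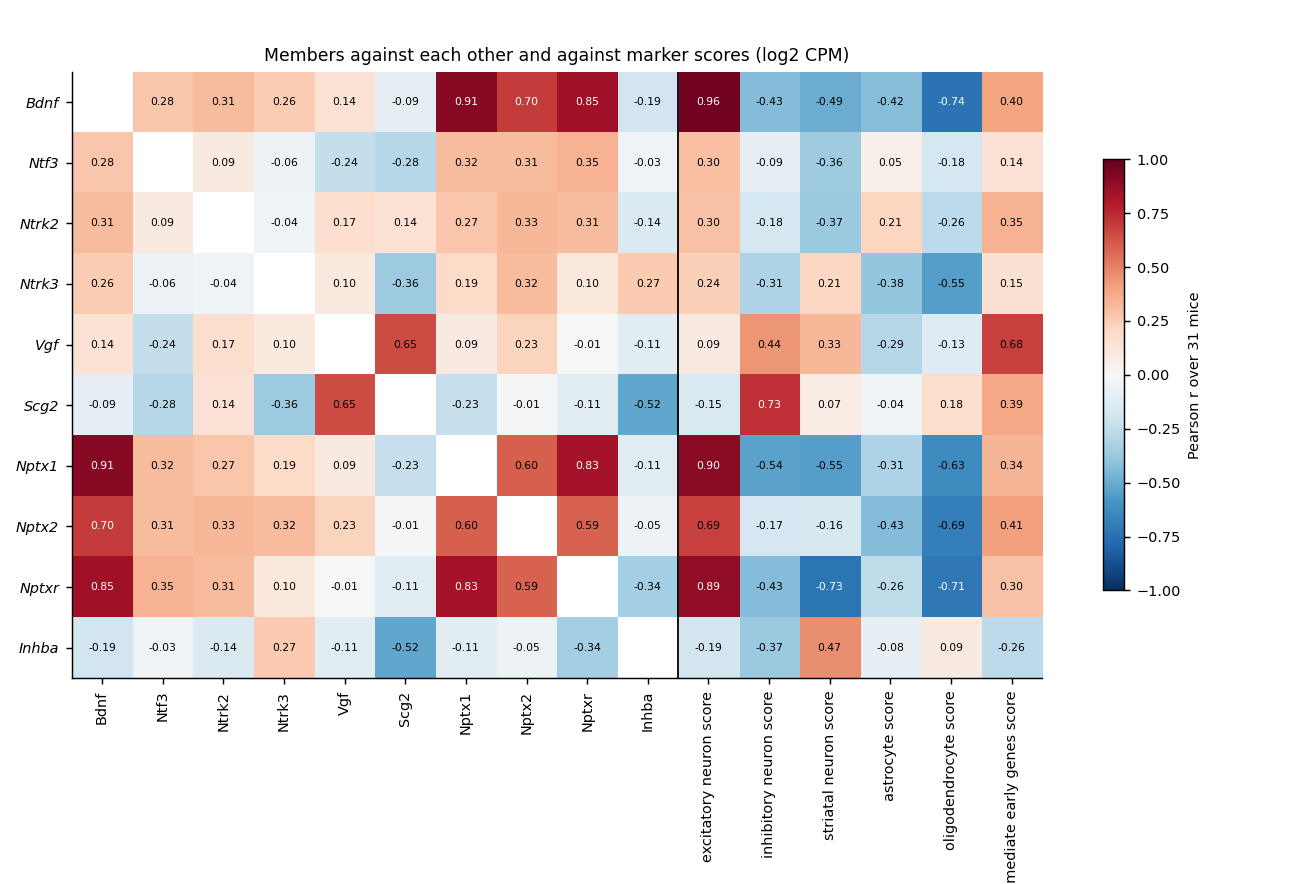
Pearson r of log2 CPM over 31 mice between the members and between the members and 6 marker scores, from blue for -1 to red for 1. Bdnf, Nptx1, Nptx2 and Nptxr form a red block with r from 0.589 to 0.914, and have r from 0.685 to 0.965 with the excitatory neuron score.

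The same 4 genes followed markers of excitatory neurons. For each of 6 marker lists a score was made as the mean of standardized log2 CPM, and 20 of the 60 relations of members to scores had an adjusted p under 0.05 (Benjamini-Hochberg over 60). With the score of 8 excitatory neuron markers Bdnf had r = 0.965 (permutation p = 1e-05, 0.0001 adjusted) and rho = 0.954 (permutation p = 1e-05), 0.959 without the 2 farthest mice, and from 0.962 to 0.968 within each genotype and line. Nptx1 had r = 0.900 (permutation p = 1e-05) and rho = 0.872 (permutation p = 1e-05), with 0.875 without the 2 farthest mice and 0.943 and 0.813 in lines 1 and 3. Nptxr had r = 0.889 (permutation p = 1e-05) and rho = 0.862 (permutation p = 1e-05), with 0.893 without the 2 farthest mice and 0.892 in each line. Nptx2 had r = 0.685 (permutation p = 5e-05) and rho = 0.692 (permutation p = 8e-05), with 0.635 without the 2 farthest mice and 0.820 and 0.420 in lines 1 and 3. The summed markers ran from 545 to 3775 CPM. Mean scores were -0.45 ± 0.95 (SD, n = 8) in WT and -0.01 ± 0.92 (SD, n = 7) in CYFIP1 OE mice of line 1, and 0.48 ± 0.29 and -0.03 ± 0.90 (SD, n = 8 each) in those of line 3, so that WT mice were lowest in line 1 and highest in line 3, as they were for Bdnf and Nptx1. Both sides of each relation come from the same library, and the part of the markers in the values of these genes was not tested.

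**Figure D4:**
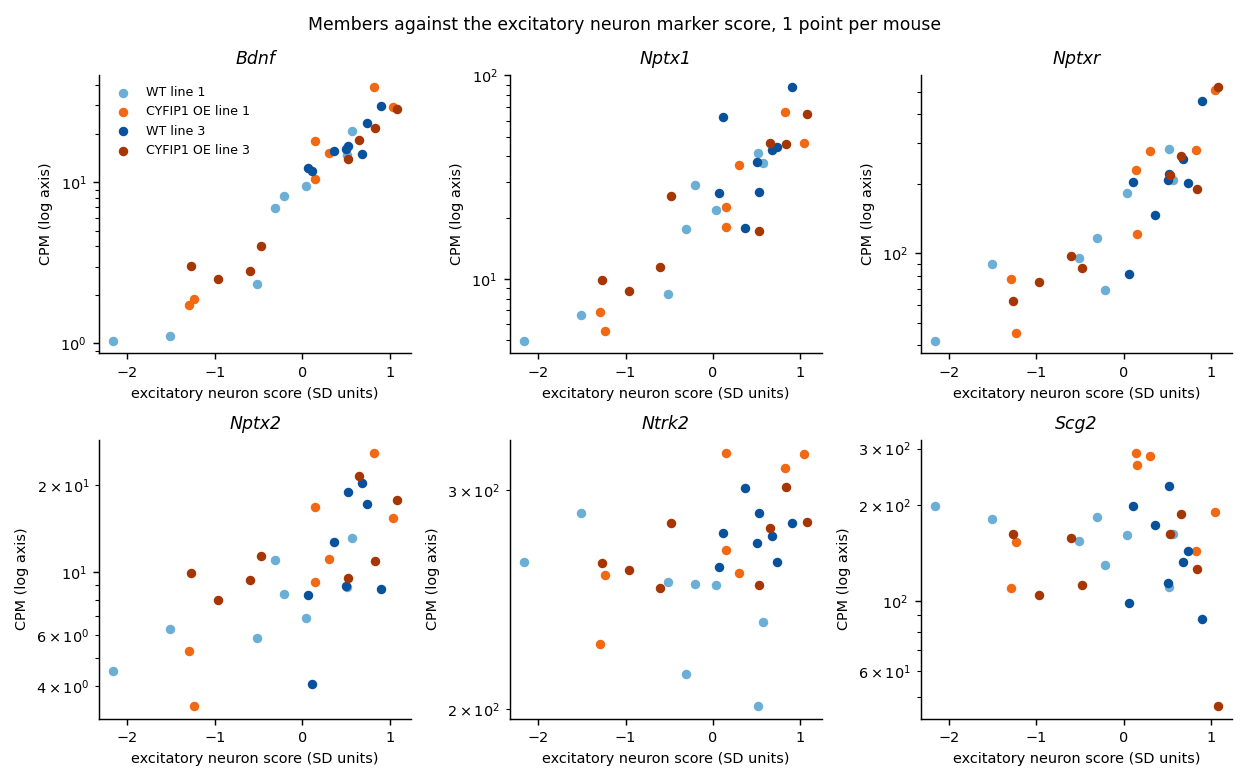
CPM of 6 members, on log axes, against the excitatory neuron score, the mean of 8 standardized markers, with a point for each mouse coloured by genotype and line. Bdnf, Nptx1 and Nptxr increase with the score in both lines (r over all mice = 0.965, 0.900 and 0.889), whereas r was 0.296 for Ntrk2 and -0.151 for Scg2.

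The comparisons were refitted with the excitatory neuron score in the model, an alternative chosen after the data were seen. This score comes from the same libraries and had r = 0.965 with Bdnf, 0.900 with Nptx1 and 0.889 with Nptxr. Smaller fold changes and SE of these genes in this fit are therefore no result separate from that relation. Over all mice the log2 fold change of Bdnf was then 0.00 ± 0.13 (SE, p = 0.997), an interval of 0.833- to 1.20-fold. In line 1 Bdnf was at 0.27 ± 0.20 (SE, p = 0.181) and in line 3 at -0.24 ± 0.19 (SE, p = 0.205), nearer to 0 than without the score. Its difference between lines was -0.52 ± 0.28 (SE, p = 0.0737), against -1.60 ± 0.82 (SE, p = 0.0579) without the score. Nptxr in line 1 was at 0.07 ± 0.23 (SE, p = 0.748). Between WT mice of the lines, Bdnf was at 0.09 ± 0.20 (SE, p = 0.645) and Nptx1 at 0.22 ± 0.26 (SE, p = 0.411). Inhba, which had r = -0.186 with the score, moved little, to 1.35 ± 0.64 (SE, p = 0.0416) for the difference between lines. In residuals after the score, 2 of the 45 pairs had an adjusted p under 0.05, Vgf with Scg2 at r = 0.678 and Scg2 with Inhba at r = -0.563, while Bdnf with Nptx1 was at r = 0.398 (permutation test, adjusted p = 0.323). These residuals kept the library that stood apart, the lowest of all mice in Vgf and Scg2, and were not taken without it.

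**Figure D5:**
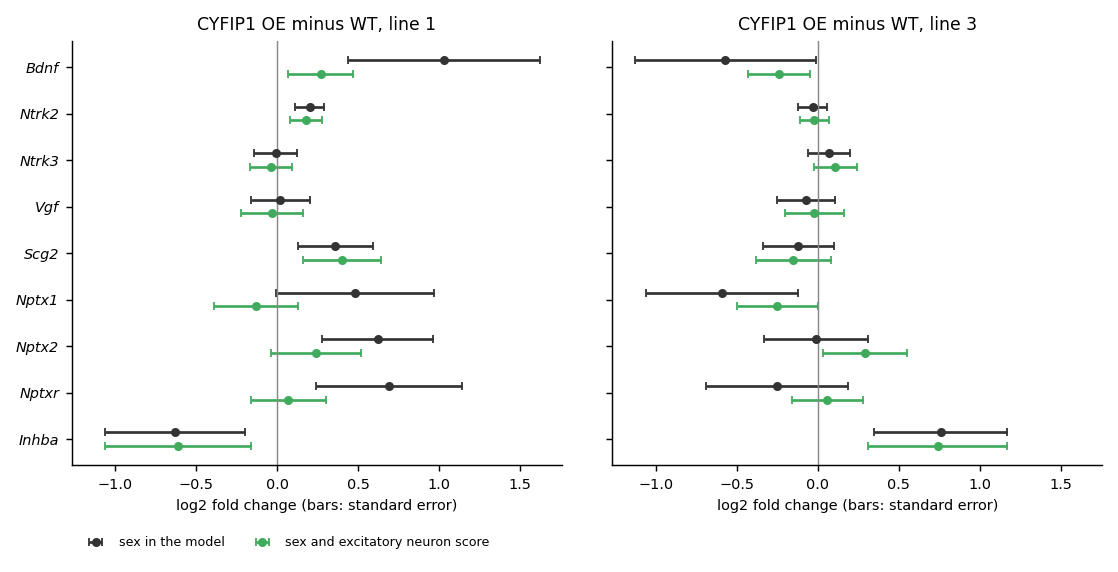
Log2 fold change of CYFIP1 OE over WT in lines 1 and 3 for the 9 tested members, with bars for the SE, from the fit with sex alone and from the fit with sex and the excitatory neuron score. The SE of Bdnf in line 1 is 0.59 without and 0.20 with the score, and Inhba stays at -0.63 and -0.61 in line 1 and at 0.76 and 0.74 in line 3. The score, from the same libraries, has r = 0.965 with Bdnf and -0.186 with Inhba over all mice.

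Oligodendrocyte markers ran against the same 4 genes, and also against Ntrk3. Bdnf had r = -0.737 (permutation p = 2e-05) and rho = -0.840 (permutation p = 1e-05), Nptxr r = -0.715 (permutation p = 1e-05) and rho = -0.710 (permutation p = 1e-05), Nptx2 r = -0.687 (permutation p = 6e-05) and rho = -0.644 (permutation p = 0.00014) and Nptx1 r = -0.627 (permutation p = 0.00029) and rho = -0.688 (permutation p = 4e-05). Without the 2 farthest mice r was -0.816, -0.787, -0.635 and -0.803 in that order, and within the lines it lay between -0.941 and -0.394. Ntrk3 had r = -0.549 (permutation p = 0.00134, 0.00618 adjusted) and rho = -0.493 (permutation p = 0.00533) with these markers. Its r was -0.462 without the 2 farthest mice, -0.433 and -0.648 in lines 1 and 3, -0.780 in WT and -0.139 in CYFIP1 OE mice. Nptxr ran against striatal neuron markers with r = -0.728 (permutation p = 1e-05) and rho = -0.758 (permutation p = 1e-05), -0.645 without the 2 farthest mice and -0.664 and -0.827 in lines 1 and 3. Nptx1 and Bdnf did so at r = -0.547 (permutation p = 0.00131, 0.00618 adjusted) and -0.494 (permutation p = 0.00463, 0.0185 adjusted). In residuals after name group their adjusted p was 0.0767 and 0.111 (permutation test). Nptx2 had r = -0.157 (permutation p = 0.402). Inhba ran with the striatal markers at r = 0.465 (permutation p = 0.00988, 0.037 adjusted) and rho = 0.568 (permutation p = 0.00116), 0.615 without the 2 farthest mice and 0.538 and 0.518 in lines 1 and 3. In residuals after name group r of Inhba was 0.418 (permutation test, adjusted p = 0.056) and rho was 0.482 (permutation test, adjusted p = 0.0228). Mean striatal scores were 0.47 in WT and -0.38 in CYFIP1 OE mice of line 1 and -0.40 and 0.26 in those of line 3, the directions that Inhba also took. All 7 tested striatal markers had an unadjusted p under 0.05 for the difference between lines, against 8.1% of all genes. None of these markers had an adjusted p under 0.05. Their part in the values of Inhba was not tested.

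Scg2 ran with inhibitory neuron markers at r = 0.727 (permutation p = 1e-05, 0.0001 adjusted) and rho = 0.560 (permutation p = 0.00128), 0.607 without the 2 farthest mice and 0.538 and 0.745 in lines 1 and 3. With the immediate early genes, which neurons switch on soon after activity, Vgf had r = 0.684 (permutation p = 7e-05, 0.00042 adjusted) and rho = 0.489 (permutation p = 0.00572). That r was 0.754 and 0.693 in lines 1 and 3, 0.248 in WT and 0.856 in CYFIP1 OE mice, and 0.358 without the 2 farthest mice, so that much of it rests on those mice. Bdnf had r = 0.398 (permutation p = 0.0263, 0.0685 adjusted) and rho = 0.547 (permutation p = 0.00207) with the immediate early genes, 0.525 without the 2 farthest mice and 0.479 and 0.316 in lines 1 and 3. The library that stood apart had the lowest immediate early gene score of all mice. Without it 6 members passed the adjusted threshold with these genes by the permutation test, with r = 0.598 (adjusted p = 0.00256) for Nptx2, 0.580 (adjusted p = 0.00355) for Bdnf, 0.555 (adjusted p = 0.00628) for Vgf, 0.553 (adjusted p = 0.00561) for Nptxr, 0.531 (adjusted p = 0.00851) for Nptx1 and 0.453 (adjusted p = 0.0327) for Ntrk2.

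The genes most like each member, among 8448 or 8449 genes of a mean of at least 10 CPM, are given as a description by Pearson's r of log2 CPM over 31 mice in libraries that both genes share. For Bdnf they were Neurod2 (0.956), Pgm2l1 (0.949) and Cck (0.946), of which Neurod2 encodes a transcription factor of excitatory neurons and Cck the cholecystokinin precursor. For Nptx1 they were Neurod2 (0.939), Sv2b (0.926) and Bdnf (0.914), Sv2b being a synaptic vesicle gene. Neurod2 is also 1 of the 8 markers in the excitatory neuron score, so these values repeat part of the relation to that score. Nptxr was closest to Olfm1 (0.929), Gprin1 (0.922) and Sh3gl2 (0.921), and Nptx2 to Fbxw7 (0.773), Nwd2 (0.772) and Lmo4 (0.759). The Trk receptors had looser partners, with Dlx1 (0.634), Fam213a (0.628) and Maf (0.616) for Ntrk2 and D430041D05Rik (0.782), Hivep2 (0.734) and Grin2b (0.707) for Ntrk3, where Grin2b encodes a subunit of the NMDA receptor. Genes close to Vgf included Gm26723 (0.891) and Ttyh3 (0.885), and Scg2 was closest to Hnrnph3 (0.831), Gm26601 (0.831) and 6330403K07Rik (0.830). These values include the library that stood apart, the lowest of all mice in Vgf and Scg2, and were not taken without it. Inhba was closest to Epha4 (0.729), Ago4 (0.716) and Slc24a2 (0.708), and Ntf3, at its few reads, to Aph1b (0.625), Tspan17 (0.572) and Polr2l (0.560).

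In the wider pathways, no gene of 6 lists had an adjusted p under 0.05 for genotype, over all mice or in a line. Of 13 further genes for neurotrophins, their receptors and their processing, 11 were tested, and 0 had an unadjusted p under 0.05 over all mice or in either line. Of all genes, 4.3% did over all mice, 3.96% in line 1 and 7.93% in line 3. Pcsk7, a proprotein convertase, was at -0.34 ± 0.21 (SE, p = 0.11), Ntf5, which encodes neurotrophin-4, at 0.52 ± 0.36 (SE, p = 0.165), and Sort1, the sorting receptor sortilin, at -0.09 ± 0.07 (SE, p = 0.241). Without the library that stood apart Ntf5 was at 0.08 ± 0.32 (SE, p = 0.81). Of 13 genes of Trk adaptors and signalling, 1 had an unadjusted p under 0.05 over all mice, against 4.3% of all genes. It was the docking protein gene Gab1. Its mean ± SD was 17.0 ± 10.9 CPM in 16 WT and 11.2 ± 4.68 CPM in 15 transgenic mice, a log2 fold change of -0.57 ± 0.28 (SE, p = 0.0485), or -0.46 ± 0.25 (SE, p = 0.0695) without that library. Kidins220, a scaffold of Trk receptors, was at 0.10 ± 0.07 (SE, p = 0.15) and the adaptor gene Shc1 at -0.31 ± 0.23 (SE, p = 0.19).

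Of 13 granin and dense-core vesicle genes, 1 had an unadjusted p under 0.05 over all mice, against 4.3% of all genes. Pam, which encodes the enzyme that amidates neuropeptides, had a mean ± SD of 68.1 ± 11.4 CPM in 16 WT and 80.5 ± 14.01 CPM in 15 transgenic mice. This gave a log2 fold change of 0.24 ± 0.09 (SE, p = 0.00887) with an adjusted p of 0.999 by edgeR, and 0.21 ± 0.13 (SE, p = 0.0984) and 0.26 ± 0.12 (SE, p = 0.0372) in lines 1 and 3. Ptprn, a vesicle membrane protein, was at 0.24 ± 0.13 (SE, p = 0.075) and Cpe, carboxypeptidase E, at 0.19 ± 0.11 (SE, p = 0.101), or 0.07 ± 0.08 (SE, p = 0.366) without the library that stood apart. Of 8 genes of AMPA receptors and pentraxin partners, 0 had an unadjusted p under 0.05 over all mice, against 4.3% of all genes. In line 1, 1 did, against 3.96% of all genes. It was C1ql3, a secreted synaptic protein, at 1.52 ± 0.69 (SE, p = 0.034). Over all mice C1ql3 was at 0.53 ± 0.52 (SE, p = 0.314), Cacng8, an auxiliary subunit of AMPA receptors, at 0.38 ± 0.25 (SE, p = 0.137) and the subunit gene Gria4 at 0.09 ± 0.10 (SE, p = 0.388).

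Of 16 genes of the activin and inhibin pathway, 0 had an unadjusted p under 0.05 over all mice, against 4.3% of all genes. Smad3, a transducer of activin signals, was at -0.14 ± 0.11 (SE, p = 0.199), Tgfbr3, which encodes betaglycan, at -0.24 ± 0.20 (SE, p = 0.244) and the activin receptor gene Acvr2a at -0.17 ± 0.15 (SE, p = 0.271), with -0.43 ± 0.20 (SE, p = 0.039) in line 3. Of 15 immediate early genes 14 were tested, Egr3 not passing the filter. Over all mice 0 had an unadjusted p under 0.05, against 4.3% of all genes. Egr4 was at -0.23 ± 0.13 (SE, p = 0.0979), Arc at -0.25 ± 0.16 (SE, p = 0.125) and Junb at -0.19 ± 0.14 (SE, p = 0.161). In line 3, 4 of the 14 were lower and 0 higher at an unadjusted p under 0.05, with a median log2 fold change of -0.45, against -0.02 and 7.93% of genes called over all tested genes. Without the library that stood apart, which had the lowest immediate early gene score, 4 were lower and the median was -0.30, against 9.01% of genes called. In line 1, 1 was higher and 0 lower, with a median of 0.05, against 3.96% of all genes called. Fos was at -0.94 ± 0.31 (SE, p = 0.00422) in line 3, with an adjusted p of 0.514 by edgeR, and at 0.29 ± 0.32 (SE, p = 0.362) in line 1, and the difference between lines was -1.24 ± 0.44 (SE, p = 0.00829) with an adjusted p of 0.535. In WT mice, 3 of the 14 were higher in line 3 than in line 1 and 0 lower at an unadjusted p under 0.05, with a median of 0.38, against 4.41% of all genes called. WT mice of line 3 enter both comparisons.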

How the data were processed

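RNA of the basolateral amygdala was sequenced by QuantSeq 3′ in 31 mice. The authors mapped reads with STAR to GRCm38, quantified genes with Salmon and deposited expected counts per mouse, not normalized, of which 26.4% were not whole. Groups, line, sex and age came from the labels, and symbols and positions from GENCODE M21 (48349 of 48709 identifiers). Members and gene lists were chosen with earlier results of these data known.

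Counts were rounded. The low-count filter was that of the study, a minimum of 10 reads in 20% or more of the mice. Differences were tested with edgeR 4.0.16 in R 4.3.3 (TMM, two-sided quasi-likelihood F test, Benjamini-Hochberg over 17428 genes), with sex and line as covariates for genotype over all mice. Contrasts by line used 1 fit over 4 groups of genotype and line, with sex. Ntf3 was tested in a fit without the filter. The study used DESeq2 with 5 components of sequencing statistics, which were not used here. Alternatives used 5 surrogate variables (sva 3.50.0), DESeq2 1.42.0, other filters, covariates and samples. Intervals are the log2 fold change with 95% normal limits from its SE. Correlations used log2 CPM with a prior count of 2 and 100000 permutations (numpy 2.4.6, scipy 1.17.1, pandas 2.3.3), and figures matplotlib 3.10.9. The steps were tested on simulated data.

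Apart from the members, the genes described singly were the 3 genes of each pathway list with the smallest p for genotype over all mice, any list gene with p under 0.005 in a line, and the 3 genes most like each member. Some genes that these rules name are not reported here. C1ql3, Acvr2a and Pam were among them by the first rule. Rounded counts of any 2 mice differed in at least 16861 of the tested genes, so none was taken as a repeated library. The paper describes the WT mice as littermates of the transgenic mice, and the labels do not say which mice were littermates.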

Additional observations from a re-analysis of the deposited data

Results flagged for a closer look

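Levels of the 10 members in the 4 groups of genotype and line gave 40 sets, each searched for a mouse far from the rest of its set (Dixon's test), and 4 had one, where chance gives about 1 in 20. In WT mice of line 3, Nptxr was at 456 CPM in 1 female, and the next mouse was at 256 CPM. In CYFIP1 OE mice of line 3, Nptxr was at 523 CPM in the library that stood apart by its connectivity Z-score, and the next mouse was at 263 CPM. Both mice belonged to the same name group. Ntf3 was at 1.23 CPM in 1 WT mouse of line 1, with the next at 0.494 CPM, and at 1.47 CPM in 1 CYFIP1 OE mouse of line 1, with the next at 0.601 CPM, on 9 and 10 reads. The library that stood apart was also number 4 of 31 mice from the highest in Bdnf and number 3 in Nptx1, and the lowest in Vgf and Scg2. The causes were not tested.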

How the results depend on the processing

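Depth limits Ntf3, and the wide spread between mice limits Bdnf, Nptx1, Nptxr and Inhba. No paired analysis was possible because replicate numbers follow accession order and pair no mice, and name group entered as a block only in the alternatives given here. Levels moved by less than 1 SD under other scalings. With 5 surrogate variables 3 genes passed an adjusted p under 0.05 and 3 members had an unadjusted p under 0.05. In line 1, members with an unadjusted p under 0.05 numbered 0 with each line alone, without mice aged 77 days or with the excitatory neuron score, and in line 3 they numbered 1 (Inhba) with each line alone or without mice aged 77 days. By DESeq2, 1, 4 and 2 genes passed the adjusted threshold in line 1, line 3 and their difference. For that difference 4 members had an unadjusted p under 0.05 without the library that stood apart and 0 without mice aged 77 days. Between WT mice of the lines there were 4 in WT mice alone, 2 by DESeq2 and 0 with the score. After the score 2 pairs of members were called. The cause of these changes was not tested.

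Some values changed sign, none of them past an adjusted threshold before or after, apart from 3 correlations. For genotype over all mice (log2 fold change), surrogate variables gave -0.37 for Bdnf, -0.02 for Ntrk3, -0.14 for Nptxr, -0.15 for Ntf5 and -0.06 for C1ql3. Name group in place of line, and then the 5 name groups with both genotypes alone, gave -0.24 and -0.28 for Bdnf, -0.0034 and -0.0045 for Ntrk2, -0.04 and -0.07 for Scg2, 0.0036 and 0.0076 for Sort1, -0.40 and -0.47 for C1ql3, -0.09 and -0.11 for Gria4, and 0.09 and 0.12 for Tgfbr3. Nptxr was at -0.0023 with age added and -0.01 without mice aged 77 days, where C1ql3 was at -0.08 and, in line 1, Ntrk3 at 0.04. Without the library that stood apart Vgf was at 0.05 over all mice, 0.08 in line 3 and 0.06 for the difference between lines, Scg2 at 0.03 in line 3 and Nptxr at 0.02 between sexes. With the excitatory neuron score Vgf was at -0.03 and Nptx1 at -0.13 in line 1, Nptx2 at 0.29 and Nptxr at 0.06 in line 3, Vgf at 0.01 and Nptx2 at 0.05 for the difference between lines, and Nptxr at -0.20 between WT mice. In residuals after the score r was -0.101 for Bdnf with Nptxr, -0.063 for Nptx1 with Nptx2 and -0.059 for Nptx2 with Nptxr.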
